A study of Oryctolagus cuniculus with 24 samples.

Results

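The STAT family of transcription factors was followed in peripheral blood mononuclear cells (PBMCs) of the rabbit, the lymphocytes and monocytes that are separated from blood on a density gradient. Of the 6 family genes considered (STAT2, STAT3, STAT4, STAT5A, STAT5B and STAT6), 5 had a probe on the array under the naming used here, among 28893 genes measured in all. STAT2 was without such a probe and was not analysed here. STAT3, STAT4 and STAT6 were identified by the gene number or RefSeq accession that the files attach to their probes. STAT5A was identified by its Ensembl gene number in the list of immune genes that the study added to the array, and STAT5B by the description in the files, which calls its transcript 5B-like. The last 2 names therefore rest on weaker grounds than the first 3.

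The 4 donors were New Zealand White rabbits, all adult and female, which are called rabbits 1, 2, 4 and 5 here. Cells of every rabbit were mock-stimulated with buffer alone, stimulated with LPS at 1 µg/mL, or stimulated with PMA at 10 ng/mL together with ionomycin at 1 µg/mL (PMA-Ionomycin), and were harvested after 4 h (T4) or 24 h (T24). This gave 6 groups of 4 arrays, so that each group holds the same 4 animals and no genotype or age differs between groups. LPS, a glycolipid of the bacterial envelope, acts on cells through the receptor TLR4. PMA activates protein kinase C and ionomycin lets calcium into the cell, so that the mixture bypasses the receptors of the cell surface.

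STAT proteins wait in the cytoplasm in an inactive form. When a cytokine binds its receptor, JAK kinases attached to the receptor phosphorylate a tyrosine of the STAT protein, and the paired STAT proteins move to the nucleus and switch on their target genes. STAT4 acts downstream of IL12 and drives IFNG production in Th1 cells, STAT6 acts downstream of IL4 and IL13 in Th2 cells, STAT5A and STAT5B carry signals of IL2, IL7, IL15 and CSF2, and STAT3 those of IL6, IL10 and IL21. The array measures the transcripts of these genes and not the phosphorylated proteins.

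The 10 probes of the family are shown here in full, because the results for STAT3 turn on which bases a probe covers. All are 60 bases long, are written 5′ to 3′ as the files give them, and have at least 1 reading frame without a stop before its last codon. Capitals in the STAT3 probes mark the 31 bases that all 5 of them share. Positions are on oryCun2, the build named in the file headers, and all mapped probes lie on the minus strand.
STAT3 probe a: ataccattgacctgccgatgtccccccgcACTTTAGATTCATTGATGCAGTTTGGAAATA
STAT3 probe b: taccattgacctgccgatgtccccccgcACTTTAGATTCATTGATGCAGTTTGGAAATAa
STAT3 probe c: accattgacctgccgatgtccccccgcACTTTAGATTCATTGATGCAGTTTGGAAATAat
STAT3 probe d: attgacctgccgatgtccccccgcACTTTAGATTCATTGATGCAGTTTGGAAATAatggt
STAT3 probe e: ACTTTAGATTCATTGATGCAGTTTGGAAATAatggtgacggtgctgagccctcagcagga
The 5 probes tile chr19:43125254-43125342 of the STAT3 gene. Probe a covers chr19:43125283-43125342, and probe e, the one farthest downstream, covers chr19:43125254-43125313. Probes a to d share 55 bases or more with one another, whereas probe e shares 31 to 36 bases with each of them.

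The other 4 genes were read by fewer probes, which are shown for the family to be compared. Capitals in the second STAT4 probe mark the stop codon that ends its open frame.
STAT4 probe a: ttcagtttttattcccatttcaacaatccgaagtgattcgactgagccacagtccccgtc
STAT4 probe b: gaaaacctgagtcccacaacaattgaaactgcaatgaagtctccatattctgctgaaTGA
STAT5A probe: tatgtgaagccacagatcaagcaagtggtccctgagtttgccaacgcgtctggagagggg
STAT5B probe: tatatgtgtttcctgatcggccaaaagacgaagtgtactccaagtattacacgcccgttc
STAT6 probe: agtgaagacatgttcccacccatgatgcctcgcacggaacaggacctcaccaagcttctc
STAT4 probe a is placed at chr7:131468905-131469719, a span of 815 bases for a probe of 60, so that its ends lie on either side of an interval it does not cover. STAT4 probe b is placed at chr7:131468805-131468861, which is 57 bases. The STAT5B probe lies at chr19:43022729-43022788, on the same chromosome as STAT3. No chromosome position is given for the STAT5A and STAT6 probes. Between probes of different genes of the family the longest run of bases in common is 8 on either strand. The STAT5A and STAT5B probes have 6 in a row in common. Such overlap between probes does not show whether a probe also binds the transcript of another gene. For STAT5A and STAT5B, as for the others, this was not tested.

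The level of a gene is given throughout as the log2 of its median spot signal minus the median of all non-control spots of that array, averaged over its probes. A level of 0 is therefore the middle of the array, and levels of different genes cannot be set against each other because their probes differ. All spots of the family were well above background on all 24 arrays, and none was saturated. A difference was called when limma, fitted to all genes and all arrays, gave a Benjamini-Hochberg adjusted p under 0.05. Between 51.4 and 62.3% of spots were well above background, and 2 arrays stood apart at the low end. These were the LPS T4 array of rabbit 4 (51.4%) and the PMA-Ionomycin T4 array of rabbit 2 (52.6%). Results for STAT genes that rest on them are given with and without them where a call changes. For the genes around the STAT family whole rabbits were left out instead. The arrays lie on 3 slides that each hold all 6 groups.

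PMA-Ionomycin stimulation called 3 of the 5 genes at T4 and 3 at T24. STAT5A and STAT5B were higher at both times, STAT6 was lower at T4, and STAT4 was higher at T24. Of all genes tested, these comparisons called 22.8% (T4) and 33.6% (T24), of which 13.4 and 22.1% higher and 9.33 and 11.5% lower. After LPS stimulation no gene of the family was called by limma at either time, against 1.02% of all genes for T4 and 1.23% for T24. At an unadjusted p under 0.05, STAT6 alone passed in the T4 comparison and none in the T24 comparison. No gene of the family was called in the test of whether the LPS change differed between the times, in which 1.95% of all genes were called (1.71% higher and 0.239% lower), and STAT5A, STAT5B and STAT6 passed there at an unadjusted p under 0.05. STAT3, as the average of its probes, was not called in any comparison, although other scalings called it in the comparisons named below.

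**Figure D1:**
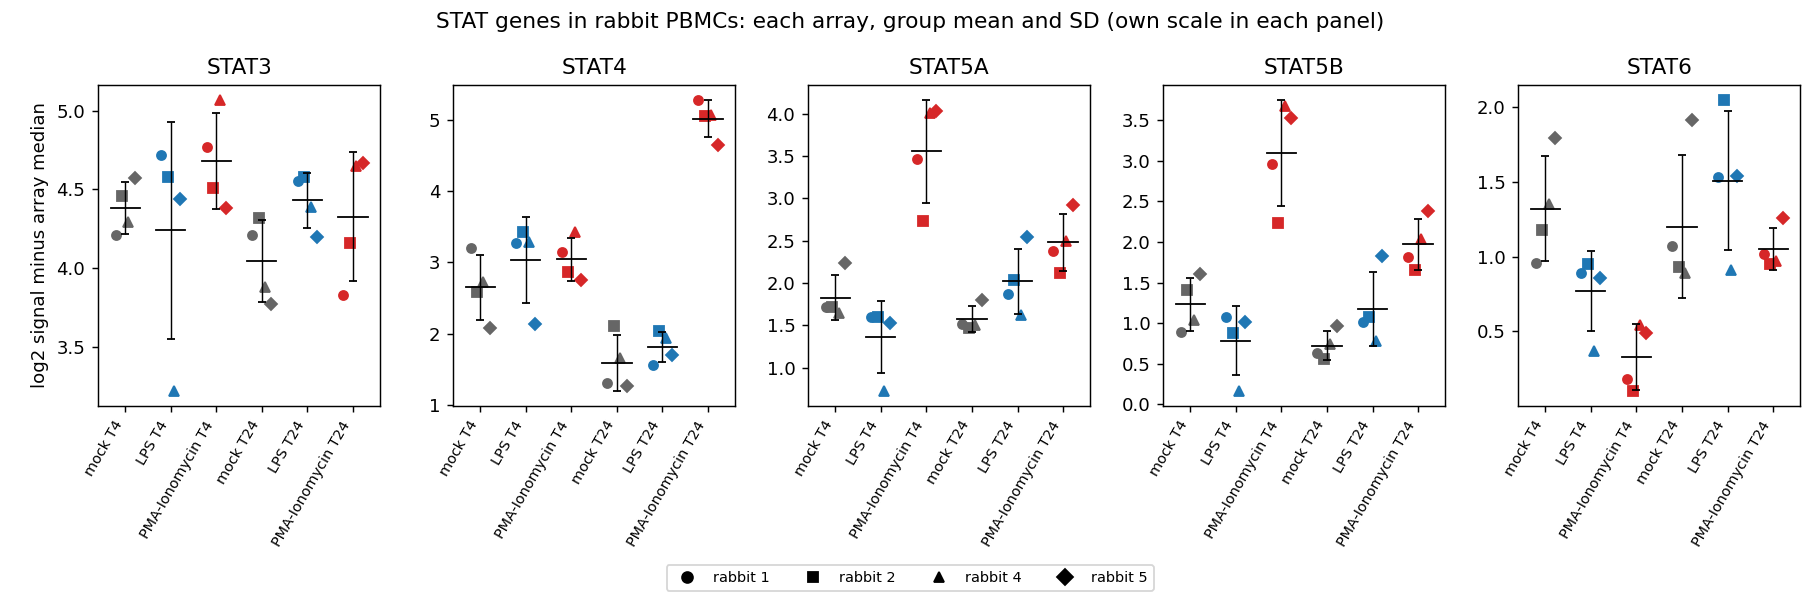
Levels of the 5 STAT genes (vertical axis, log2 signal minus the array median, with its own scale in each panel) in the 6 groups. Symbols are single arrays by rabbit, horizontal lines the group means and bars the SD (n = 4). STAT4 lies between 4.65 and 5.28 in PMA-Ionomycin T24, apart from all its other arrays.

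**Figure D2:**
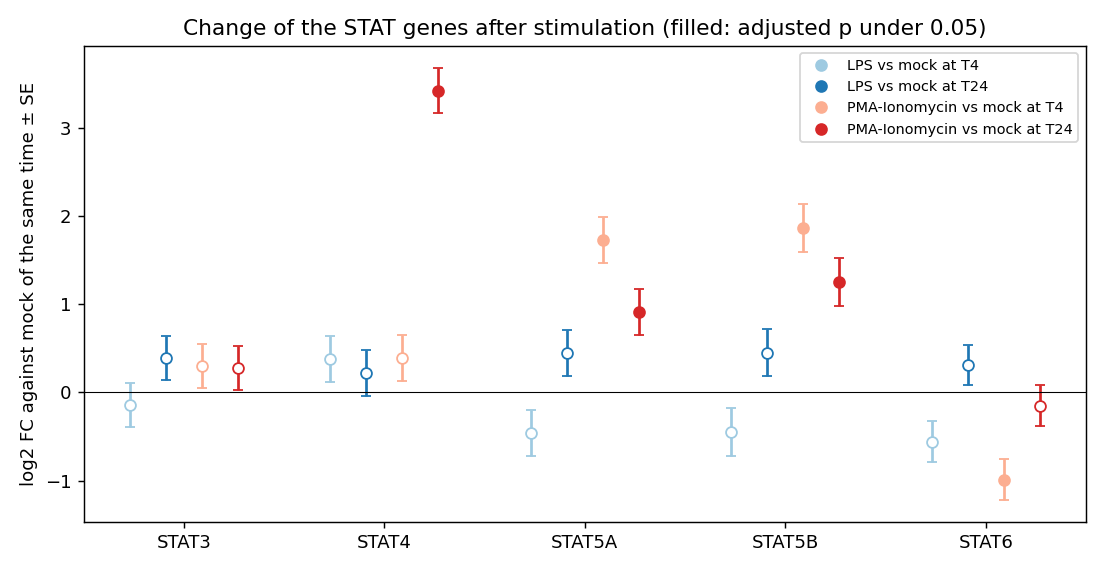
Log2 FC of each STAT gene against mock-stimulated PBMCs of the same time (points) with its standard error (bars) from limma. Filled points passed an adjusted p of 0.05. They are STAT4 at T24, STAT5A and STAT5B at both times and STAT6 at T4, all after PMA-Ionomycin.

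STAT4 had the widest range among the groups. Its level was 3.2, 2.59, 2.72 and 2.09 in mock T4 and 1.31, 2.11, 1.67 and 1.27 in mock T24 (rabbits 1, 2, 4 and 5, as in all such series below). In PMA-Ionomycin T24 it was 5.28, 5.05, 5.07 and 4.65. Each of the 4 arrays of PMA-Ionomycin T24 was thus above every array of the other groups.

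Against mock T24, STAT4 was higher after PMA-Ionomycin in 4 of 4 rabbits (log2 FC 3.42 ± 0.26 SE, n = 4 per group, adjusted p = 2.65e-10 by limma), with differences of 2.93 to 3.97 within the 4 rabbits. At T4 its level after PMA-Ionomycin was 3.14, 2.86, 3.42 and 2.75, which overlapped with mock T4 (log2 FC 0.39 ± 0.26, adjusted p = 0.36 by limma). The change with PMA-Ionomycin differed between the times by 3.03 ± 0.36 on the log2 scale (adjusted p = 1.27e-06 by limma), and STAT4 was the only gene of the family called in that test, in which 22.5% of all genes were called (14.4% higher and 8.17% lower). Both STAT4 probes rose at T24, by 3.17 and 3.66 on the log2 scale. Within single slides the T24 difference was 2.75 to 3.8.

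In the cultures without PMA-Ionomycin, STAT4 declined with time. It was 2.08-fold lower in mock T24 than in mock T4 (log2 FC -1.06 ± 0.26, adjusted p = 0.00646 by limma), and lower in each of the 4 rabbits, although 1 value of each group overlapped. In this comparison 12.5% of all genes were called, 7.42% higher and 5.13% lower. The call was lost without rabbit 1 or without rabbit 4, and the log2 FC without each rabbit in turn was -1.25 to -0.78. After LPS the level went from 3.27, 3.43, 3.29 and 2.14 at T4 to 1.57, 2.04, 1.95 and 1.71 at T24. These 2 groups did not overlap, and the gene was 2.32-fold lower at T24 (log2 FC -1.22 ± 0.26, adjusted p = 0.000965 by limma), where 37.6% of all genes were called (16.7% higher and 20.9% lower, and the median of all genes was -0.19). With PMA-Ionomycin it went the other way and was 3.92-fold higher at T24 than at T4 (adjusted p = 1.43e-06 by limma), where 33.7% of all genes were called (20.3% higher and 13.4% lower, and the median of all genes was -0.1).

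LPS left STAT4 close to the mock-stimulated level, with a log2 FC of 0.38 ± 0.26 at T4 (adjusted p = 0.546 by limma) and of 0.22 ± 0.26 at T24 (adjusted p = 0.899 by limma). In the order of the 6 group means, PMA-Ionomycin T24 (5.01 ± 0.26 SD) stood above PMA-Ionomycin T4 (3.04 ± 0.3), LPS T4 (3.03 ± 0.6) and mock T4 (2.65 ± 0.45). These 3 did not differ as neighbours. LPS T24 (1.82 ± 0.22) was below mock T4 (adjusted p = 0.0314 by limma), and mock T24 (1.59 ± 0.39) did not differ from LPS T24.

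STAT5A and STAT5B encode near-identical proteins from neighbouring genes in mammals, and here the levels from their probes moved alike. STAT5A was at 1.72, 1.71, 1.65 and 2.23 in mock T4 and at 3.46, 2.73, 4.01 and 4.03 in PMA-Ionomycin T4. STAT5B was at 0.89, 1.41, 1.04 and 1.6 in mock T4 and at 2.96, 2.23, 3.68 and 3.53 in PMA-Ionomycin T4. For both genes every PMA-Ionomycin T4 array was above every mock T4 array, and the array of rabbit 2, which has few spots above background, was the lowest of its group.

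At T4 STAT5A was 3.33-fold higher after PMA-Ionomycin (log2 FC 1.73 ± 0.26, adjusted p = 1.75e-05 by limma) and STAT5B 3.64-fold higher (log2 FC 1.86 ± 0.27, adjusted p = 1.57e-05 by limma). Without the array of rabbit 2 the log2 FC was 2.01 for STAT5A and 2.16 for STAT5B. At T24 the levels after PMA-Ionomycin were 2.38, 2.12, 2.5 and 2.92 for STAT5A and 1.81, 1.66, 2.04 and 2.38 for STAT5B. The mock T24 levels were 1.51, 1.47, 1.5 and 1.8 for STAT5A and 0.63, 0.56, 0.74 and 0.96 for STAT5B, so that the groups did not overlap at T24 either. The FC at T24 was 1.88 for STAT5A (log2 FC 0.91 ± 0.26, adjusted p = 0.00736 by limma) and 2.37 for STAT5B (log2 FC 1.25 ± 0.27, adjusted p = 0.000819 by limma). Without rabbit 1 the STAT5A log2 FC at T24 was as large, at 0.92, but missed the threshold (adjusted p = 0.0537 by limma).

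Levels of both genes after PMA-Ionomycin were lower at T24 than at T4, by 1.08 ± 0.26 for STAT5A (adjusted p = 0.00185 by limma) and by 1.13 ± 0.27 for STAT5B (adjusted p = 0.00222 by limma) on the log2 scale, in 4 of 4 rabbits. Whether the change with PMA-Ionomycin itself was called different between the times depended on the setting for STAT5A. The difference was -0.82 ± 0.36 for STAT5A (adjusted p = 0.12 by limma) and -0.62 ± 0.39 for STAT5B (adjusted p = 0.329 by limma). STAT5A passed in this test under quantile normalization and under normexp (log2 difference -0.95 each, adjusted p = 0.0307 and 0.0249 by limma) and with the processed signal (-1.08, adjusted p = 0.0415 by limma). It also passed with the rabbit as a block (adjusted p = 0.0465 by limma) and without the PMA-Ionomycin T4 array of rabbit 2 (log2 difference -1.1, adjusted p = 0.0157 by limma).

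After LPS both genes were at or below their mock-stimulated level at T4 and above it at T24, without a call. The log2 FC of STAT5A was -0.46 ± 0.26 at T4 (adjusted p = 0.453 by limma) and 0.45 ± 0.26 at T24 (adjusted p = 0.591 by limma). That of STAT5B was -0.45 ± 0.27 at T4 (adjusted p = 0.496 by limma) and 0.45 ± 0.27 at T24 (adjusted p = 0.623 by limma). All 4 rabbits had the sign of the mean for STAT5A at both times, and its LPS T4 arrays lay below its mock T4 arrays. Leaving out the LPS T4 array of rabbit 4, at which STAT5A stood at 0.72 against 1.53 to 1.6 in the others, brought the T4 values to -0.24 and -0.25. From T4 to T24 of LPS stimulation STAT5A rose by 0.65 ± 0.26, an adjusted p of 0.0501 by limma, which became 0.0191 with the rabbit as a block and 0.206 without that array.

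Compared directly, PMA-Ionomycin gave more STAT5A than LPS at T4 (4.58-fold, adjusted p = 6.46e-07 by limma) and more STAT5B (4.98-fold, adjusted p = 7.31e-07 by limma), where 26.7% of all genes were called (17.7% higher and 9.03% lower). At T24 STAT4 was 9.16-fold higher after PMA-Ionomycin than after LPS (adjusted p = 6.85e-10 by limma) and STAT5B 1.74-fold higher (adjusted p = 0.025 by limma), where 36.1% of all genes were called (23.6% higher and 12.5% lower). The STAT5B call was lost without rabbit 1 or rabbit 4, with a log2 FC of 0.64 to 0.88 without each rabbit in turn, and also with the processed signal (0.7) and the deposited table (0.63).

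The STAT5B oligonucleotide was also spotted 3 times on each array under another identifier. Those spots followed the STAT5B probe with a Pearson r of 0.994 over the 24 arrays and gave, for PMA-Ionomycin against mock, a log2 FC of 1.82 (T4) and of 1.2 (T24). Over the 24 arrays the STAT5A and STAT5B levels had an r of 0.984, as a description of arrays that share animals, slides and stimulations. For each of the pair the other was the most alike of 6596 genes with a symbol that were well above background in at least 1 group, followed by POLR1C (r = 0.967 for STAT5A and 0.975 for STAT5B), a subunit of RNA polymerases I and III. The third was METTL16 for STAT5A (r = 0.962) and RCL1 for STAT5B (r = 0.971).

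The group orders of STAT5A and STAT5B began alike. PMA-Ionomycin T4 was highest (3.56 ± 0.61 SD for STAT5A and 3.1 ± 0.66 for STAT5B) and PMA-Ionomycin T24 next (2.48 ± 0.34 and 1.97 ± 0.32), and this step was called for both genes. PMA-Ionomycin T24 did not differ from its neighbour LPS T24 for STAT5A (adjusted p = 0.192 by limma), and was above its neighbour mock T4 for STAT5B (adjusted p = 0.0427 by limma). The remaining neighbours were not called different in either gene. LPS T4 (1.36 ± 0.43) was the lowest group of STAT5A and mock T24 (0.73 ± 0.18) that of STAT5B.

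STAT6 went the other way at T4. Its level was 0.96, 1.18, 1.35 and 1.79 in mock T4 and 0.18, 0.1, 0.54 and 0.49 in PMA-Ionomycin T4, without overlap. It was 1.99-fold lower (log2 FC -0.99 ± 0.23, adjusted p = 0.00206 by limma), and lower in each of the 4 rabbits by 0.79 to 1.3 on the log2 scale. At T24 it was at 1.07, 0.93, 0.89 and 1.91 in mock cultures and at 1.02, 0.95, 0.97 and 1.26 after PMA-Ionomycin. The groups overlapped at T24 (log2 FC -0.15 ± 0.23, adjusted p = 0.747 by limma). The difference between the times was 0.85 ± 0.32, with an adjusted p of 0.066 by limma, and 0.0309 with the rabbit as a block.

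After LPS at T4 the STAT6 level was 0.89, 0.95, 0.37 and 0.86, below every mock T4 array. The adjusted p was nevertheless 0.256 by limma (log2 FC -0.56 ± 0.23), and only 0.969% of all genes were called lower there. At T24 of LPS stimulation the level was 1.53, 2.05, 0.91 and 1.54 (log2 FC against mock 0.31 ± 0.23, adjusted p = 0.738 by limma). From T4 to T24 STAT6 rose by 0.74 ± 0.23 with LPS (adjusted p = 0.016 by limma) and by 0.72 ± 0.23 with PMA-Ionomycin (adjusted p = 0.0164 by limma). Both calls were lost without rabbit 1 or rabbit 2, at log2 differences of 0.77 and 0.62 with LPS and of 0.68 and 0.68 with PMA-Ionomycin, and under normexp, at 0.49 each. The LPS call was also lost under quantile normalization and with the processed signal. The first was also lost without the LPS T4 array of rabbit 4 (adjusted p = 0.0661 by limma), and the second without the PMA-Ionomycin T4 array of rabbit 2 (adjusted p = 0.0539 by limma). In mock-stimulated cultures the STAT6 level was 1.32 ± 0.35 (SD) at T4 and 1.2 ± 0.48 at T24, and these did not differ.

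In the order of the STAT6 groups no pair of neighbours was called different with the median-centred signal. The neighbours PMA-Ionomycin T4 and LPS T4 (log2 FC -0.44 ± 0.23, adjusted p = 0.185 by limma) were called under quantile normalization (-0.59) and with the processed signal (-1.03). At T24 STAT6 was likewise called lower after PMA-Ionomycin than after LPS with the processed signal (-0.86) and the deposited table (-0.62), against -0.46 ± 0.23 (adjusted p = 0.14 by limma). The highest mean was that of LPS T24 (1.51 ± 0.46) and the lowest that of PMA-Ionomycin T4 (0.33 ± 0.22). The genes whose levels were most like those of STAT6 over the 24 arrays were ADD1 (r = 0.893), LBR (r = 0.889) and ANAPC16 (r = 0.888). For STAT4 they were EFCAB7 (r = 0.948), MMADHC (r = 0.946) and USP16 (r = 0.946). Within the family, STAT6 had an r of -0.34 to -0.04 with the 4 other genes.

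STAT3 was the steadiest gene of the family when its 5 probes were averaged. Group means ran from 4.04 ± 0.26 (SD) in mock T24 to 4.68 ± 0.3 in PMA-Ionomycin T4, and no neighbours in the order differed. After PMA-Ionomycin the log2 FC was 0.3 ± 0.25 at T4 (adjusted p = 0.52 by limma) and 0.28 ± 0.25 at T24 (adjusted p = 0.48 by limma). After LPS it was -0.14 ± 0.25 at T4 (adjusted p = 0.825 by limma) and 0.39 ± 0.25 at T24 (adjusted p = 0.66 by limma), higher at T24 in 4 of 4 rabbits. Under quantile normalization the T24 difference with PMA-Ionomycin turned to -0.18, and the change from T4 to T24 of PMA-Ionomycin, which was -0.35 ± 0.25 (adjusted p = 0.291 by limma), became -0.71 (adjusted p = 0.029 by limma). The processed signal and normexp called that change too, and quantile normalization and normexp called STAT3 lower after PMA-Ionomycin than after LPS at T24 (log2 FC -0.65 and -0.64). In LPS T4 the level was 4.72, 4.58, 3.22 and 4.44, and without the array of rabbit 4 the log2 FC was 0.2. The genes most like STAT3 were CXCR5, TPBGL and CSNK1D, with r of 0.728 to 0.744.

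The average hides a disagreement among the probes. From T4 to T24 of PMA-Ionomycin stimulation, probes a to d changed by -0.07 to 0.06 on the log2 scale, whereas probe e changed by -1.71 (adjusted p = 1.22e-05 by limma over all probes). Against mock T24, probes a to d were higher after PMA-Ionomycin by 0.47 to 0.63, none of them called, whereas probe e changed by -0.7 (adjusted p = 0.0419 by limma over all probes). Probe e was also called in LPS T24 against LPS T4, with a log2 FC of 0.72 (adjusted p = 0.0374 by limma over all probes), where probes a to d changed by 0.02 to 0.13.

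Taken array by array, the level of probe e minus the mean of probes a to d was -1.06, -1.93, -2.35 and -1.97 in PMA-Ionomycin T24, and -0.32, -0.7, -0.96 and -0.42 in mock T24. In PMA-Ionomycin T4 it was -0.2, -0.3, 0.11 and -0.15. In each of the 4 rabbits the PMA-Ionomycin T24 array was the lowest of the 6 arrays of that animal, and in rabbit 1, with -1.06, the other 5 ran from -0.79 to -0.18. This comparison was chosen after its values were seen and was not tested.

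The oligonucleotide of probe e was also spotted 2 times on each array under another identifier. Those spots gave -0.74 for PMA-Ionomycin against mock at T24 (adjusted p = 0.0177 by limma) and -1.76 for PMA-Ionomycin T24 against T4 (adjusted p = 2.51e-06 by limma), with an r of 0.995 to probe e over the 24 arrays. The disagreement was therefore present on separate spots of the same oligonucleotide. As the sequences printed above show, probe e differs from probes a to d in the bases downstream of the shared 31, and lacks the bases that those 4 have upstream of them.

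**Figure D3:**
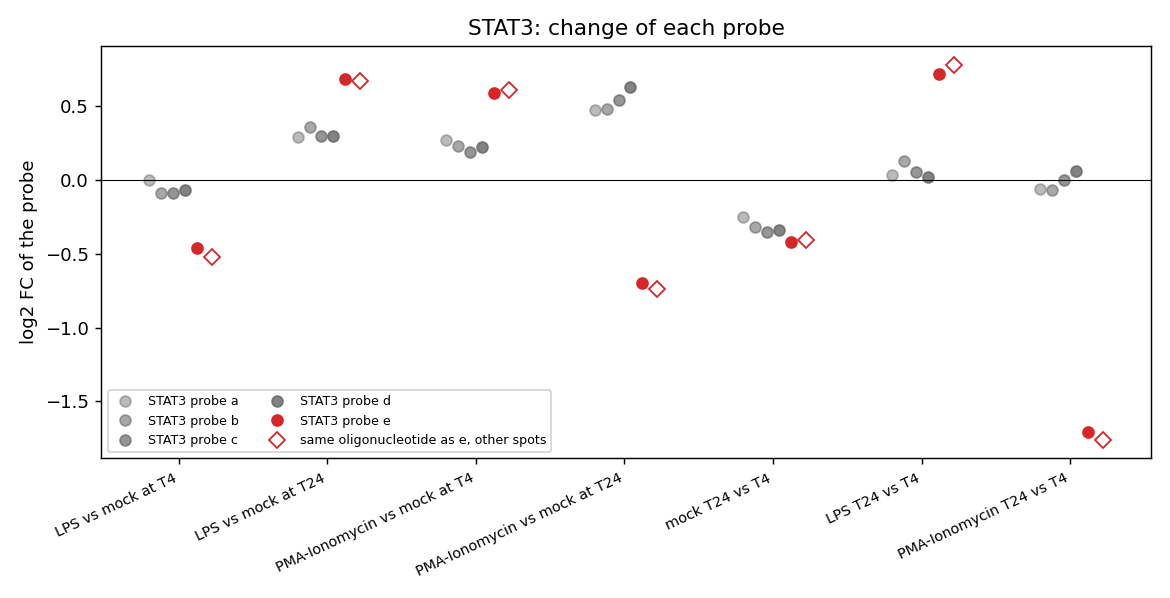
Log2 FC (vertical axis) of the 5 STAT3 probes in 7 comparisons (horizontal axis). Grey points are probes a to d, the filled red point is probe e and the open diamond is the same oligonucleotide as probe e on other spots. In PMA-Ionomycin T24 against T4 probes a to d lie between -0.07 and 0.06 and probe e at -1.71.

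The genes that surround the STAT proteins were taken from lists of JAK kinases, inhibitors, receptors, ligands and targets, of which 87 of 128 genes were found by name. After PMA-Ionomycin, 24 were higher and 29 lower at T4, and 21 higher and 21 lower at T24, to be read against the shares of all genes given above. Of these 53 calls at T4 and 42 at T24, 40 and 28 held without each rabbit in turn, and none changed sign. The median log2 FC of the 87 was 0.01 at T4 and 0.04 at T24, against 0.05 and 0.03 over all genes. After LPS, 2 were higher at T4 and 6 at T24 and none was lower, where 0.0554 and 0.644% of all genes were higher at T4 and T24.

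Of the 3 JAK kinases found, JAK1, which serves most cytokine receptors, was lower after PMA-Ionomycin at T4 (FC 1.72, adjusted p = 0.000725 by limma) and at T24 (FC 1.78, adjusted p = 0.000223 by limma). Its level fell from 5.34 ± 0.22 (SD) in mock T4 to 4.55 ± 0.26. JAK2, which serves among others the receptors of IL12 and CSF2, was not called in any comparison with mock, and TYK2, its partner at the IL12 receptor, was not well above background on any array. Neither LPS comparison called a JAK kinase.

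Some of the SOCS inhibitors are themselves targets of STAT proteins. Of the 6 found, 2 were higher and 1 lower at T4 of PMA-Ionomycin, and 2 higher and 2 lower at T24. SOCS3, which restrains STAT3 signalling, was 4.41-fold higher at T4 (adjusted p = 0.000338 by limma), and SOCS1 2.09-fold higher at T24 (adjusted p = 0.00302 by limma, and 0.0733 without rabbit 5 at 1.74-fold). SOCS5 was lower at both times (log2 FC -0.91 ± 0.2 and -1.26 ± 0.2), and SOCS2 at T24 (log2 FC -1.55 ± 0.55, adjusted p = 0.0316 by limma). The SOCS2 difference at T24 was -2.16, -2.72 and -1.68 in rabbits 1, 2 and 4 and 0.39 in rabbit 5, and the groups overlapped. Without rabbit 5 its log2 FC was -2.19, and without rabbit 1, 2 or 4 the call was lost. SOCS4 was 1.35-fold higher at T4 (not called without rabbit 4) and 1.73-fold higher at T24 (adjusted p = 1.22e-05 by limma). Of 5 PIAS proteins and phosphatases found, PTPN11, which encodes SHP2, was 4.64-fold higher at T4 and 4.78-fold higher at T24, PTPN1 was 2.76-fold higher at T4, and PTPRC, which encodes CD45, was lower at both times (log2 FC -1.13 ± 0.19 and -1.39 ± 0.19).

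The ligands of STAT6 were the 2 genes IL4 and IL13. IL4 was 111-fold higher after PMA-Ionomycin at T4 (adjusted p = 1.13e-11 by limma) and 20.2-fold higher at T24. IL13 was not well above background in mock cultures, and was at least 137-fold higher at T4 and at least 4.32-fold higher at T24. Of 4 receptor genes none was called at T4, and IL2RG and IL13RA1 were lower at T24 (log2 FC -1.89 ± 0.46 and -1.37 ± 0.27). Of 7 targets found, TGM2 was 5.62-fold higher at T4. At T24 TGM2 was at least 2.63-fold, ARG1 4.01-fold and CD86 1.8-fold higher, and the other 4 were not called. The ARG1 call was lost without rabbit 1 or 4 and the CD86 call without rabbit 1, 2 or 4. Without rabbit 5 there were 3 targets higher and 1 lower at T4, and 3 higher and 2 lower at T24.

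Of 5 ligands of STAT5 found, 3 were higher and 1 lower at both times after PMA-Ionomycin. CSF2 was 235-fold higher at T4 and 60.6-fold higher at T24, and IL2 was 42.2-fold higher at T4 and at least 20.8-fold higher at T24. IL15 was lower (log2 FC -1.23 ± 0.41 and -1.39 ± 0.41), at T4 not without rabbit 1, 2 or 4 and at T24 not without rabbit 2 or 4. Of 6 receptor genes found, only CSF2RB was lower at T4 (log2 FC -1.36 ± 0.29), and at T24 there were 4 lower, led by IL3RA (log2 FC -2.2 ± 0.36), IL2RG and CSF2RB (log2 FC -1.24 ± 0.29). Of 5 targets, 3 were higher and 1 lower at T4 and 3 higher at T24. BCL2L1, which protects from apoptosis, was at least 4.6-fold higher at T4 and 2.36-fold at T24, PIM1 was 2.05-fold higher at T4, and PRF1, the perforin of cytotoxic cells, was lower at T4 (log2 FC -0.76 ± 0.25, adjusted p = 0.0328 by limma) and 1.94-fold higher at T24. The PRF1 call at T4 was lost without rabbit 1, 2 or 4, and that at T24 without rabbit 1.

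For STAT4, 2 of 3 listed receptor genes and 5 of 8 listed ligand and target genes were found. The Th1 transcription factor TBX21 was not among those found. The study reported it higher after PMA-Ionomycin at both times. The receptor chain genes IL12RB2 and IL23R were 2.2-fold and 1.74-fold higher after LPS at T24 (adjusted p = 0.00626 and 0.00928 by limma). Neither was called without rabbit 1, 2 or 4, with folds of 2.09 to 2.21 for IL12RB2 and 1.59 to 1.82 for IL23R. After PMA-Ionomycin IL12RB2 was lower at T4 (log2 FC -0.75 ± 0.22, not called without rabbit 1, 2 or 4), and neither was called at T24, when STAT4 was high. IL23A was higher after LPS at both times (4.84-fold and 13.0-fold), and lower after PMA-Ionomycin at both times (log2 FC -3.07 ± 0.51 and -3.01 ± 0.51). Without rabbit 5 the log2 FC of IL23A at T4 was 3.01 for LPS and -2.39 for PMA-Ionomycin, and both were called. IL12A was 2.28-fold higher after LPS at T4 and at least 4.34-fold higher after PMA-Ionomycin at T24. The LPS T4 calls of IL23A (adjusted p = 0.0398 by limma, with a difference of 0.05 in rabbit 5) and IL12A (adjusted p = 0.048 by limma) were lost without rabbit 1, 2 or 4, that of IL12A also without rabbit 5, and both from the compared arrays alone, where 0 genes in all were called. IL18R1 was lower after PMA-Ionomycin at T4 (log2 FC -0.87 ± 0.29), though not without rabbit 1, 2 or 4. IFNG, the main product of Th1 cells, was read by 2 probes that disagreed after PMA-Ionomycin. Their log2 FC was -0.79 and 3.16 at T4 and -1.34 and 3.85 at T24. The averages, 1.19 ± 0.23 at T4 and 1.26 ± 0.23 at T24, therefore describe neither probe. The study reported IFNG higher at both times, on its arrays and by qRT-PCR.

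Of 8 ligands of STAT3 found, 6 were higher and 1 lower at T4 of PMA-Ionomycin, and 4 higher at T24. At T4 none was lower without rabbit 1, 2 or 5. At T24 none was higher without rabbit 4, and 1 was without rabbit 5. IL10 was 35.1-fold higher at T4 and 3.83-fold at T24, LIF was 11.3-fold and OSM 6.06-fold higher at T4, and at T24 IL6 was 4.47-fold and OSM 2.48-fold higher. The ligand values at T24 varied between the rabbits. IL10 differed by -0.4, 0.83, 2.69 and 4.64 in rabbits 1, 2, 4 and 5, with overlapping groups, and was 2.05-fold higher without rabbit 5 (adjusted p = 0.231 by limma) and 6.57-fold without rabbit 1 (adjusted p = 0.00293 by limma). The calls of IL6, IL10 and OSM at T24 were each lost without rabbit 4 and without rabbit 5, that of OSM also without rabbit 2, and IL6 was 2.79-fold higher without rabbit 5. At T4 IL6 was 5.35-fold higher, and this call was lost without rabbit 2 or 4. LPS called 3 of them higher at T24, namely IL6 (26.5-fold), IL10 (17.4-fold) and CSF3 (6.47-fold), and without rabbit 4 the IL10 call was lost at 15.5-fold (adjusted p = 0.0534 by limma). IL6ST, the signal-transducing chain of the IL6 receptor family, was 5.19-fold higher at T4 of PMA-Ionomycin and lower at T24 (log2 FC -1.68 ± 0.26). IL10RA was lower at both times (log2 FC -1.02 ± 0.22 and -1.1 ± 0.22), as was IL6R (log2 FC -0.74 ± 0.13 and -0.46 ± 0.13, the second lost without rabbit 1 or 2), and IL10RB was lower at T24 (log2 FC -1.88 ± 0.3). Of 8 targets, 5 were higher and 1 lower at T4, and 2 higher and 1 lower at T24. BATF rose most, by 8.7-fold at T4 and 7.53-fold at T24, FOS was 3.51-fold higher at T4 and MCL1 2.71-fold at T4 and 1.47-fold at T24, the last not called without rabbit 2 or 4. BCL3 was lower at both times (log2 FC -0.64 ± 0.22 and -1.15 ± 0.22), at T4 not without rabbit 1, 2 or 5.

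STAT2 itself had no probe under the naming used here, but genes around it did. The interferon receptor chains IFNAR1 and IFNAR2 and the partner IRF9 were lower after PMA-Ionomycin at both times (3 of 3), IFNAR2 most, with a log2 FC of -1.36 ± 0.33 at T4 and -3.26 ± 0.33 at T24. IFNAR1 changed by -0.88 ± 0.18 and -1.4 ± 0.18, and IRF9 by -0.79 ± 0.25 (lost without rabbit 2 or 5) and -0.88 ± 0.25 (lost without rabbit 1 or 2). Of 15 interferon targets found, 12 were lower at T4 and none higher (median log2 FC -1.38). They were led by XAF1 (-3.12 ± 0.49), IFIH1 (-3 ± 0.42) and USP18 (-2.97 ± 0.43). OAS2, IFIT2, IFI44L and CMPK2 were not well above background on any PMA-Ionomycin T4 array. The median is the OAS2 value and so rests on a signal at background. At T24, 2 of the 15 were lower, OAS2 (-0.89 ± 0.21) and ISG20 (at least 1.43-fold, not called without rabbit 1, 2 or 4), and the median was 0.01. That median combined rabbits that differed in sign. Within a rabbit the median difference of the 15 targets at T24 was -0.69, -0.45 and -0.26 in rabbits 1, 2 and 4 and 1.05 in rabbit 5, where 12 of the 15 were higher. IFIH1 differed by -0.94, -1.01 and -0.39 in rabbits 1, 2 and 4 and by 1.89 in rabbit 5. Without rabbit 5 the median at T24 was -0.26, 6 of the 15 were called lower by limma, and IFIH1 had a log2 FC of -0.78. Without rabbit 1 the median was 0.12, with 1 target called higher and 1 lower. Without rabbit 2 it was 0.06 and without rabbit 4 it was 0.01, with 1 called lower in each. At T4 14 of the 15 were lower within each rabbit, with medians of -1.86 to -0.88. LPS called none of the 15 at either time by limma. Some folds of these lists rest on groups in which few of the 4 arrays were well above background. It was 1 array for IFNAR1 after PMA-Ionomycin at each time, for IL18R1 after PMA-Ionomycin T4, for LIF and IL2 in mock T4 and for BCL2L1 in mock T24, and 2 arrays for CSF2, CSF3 and IL23R in mock T24.

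**Figure D4:**
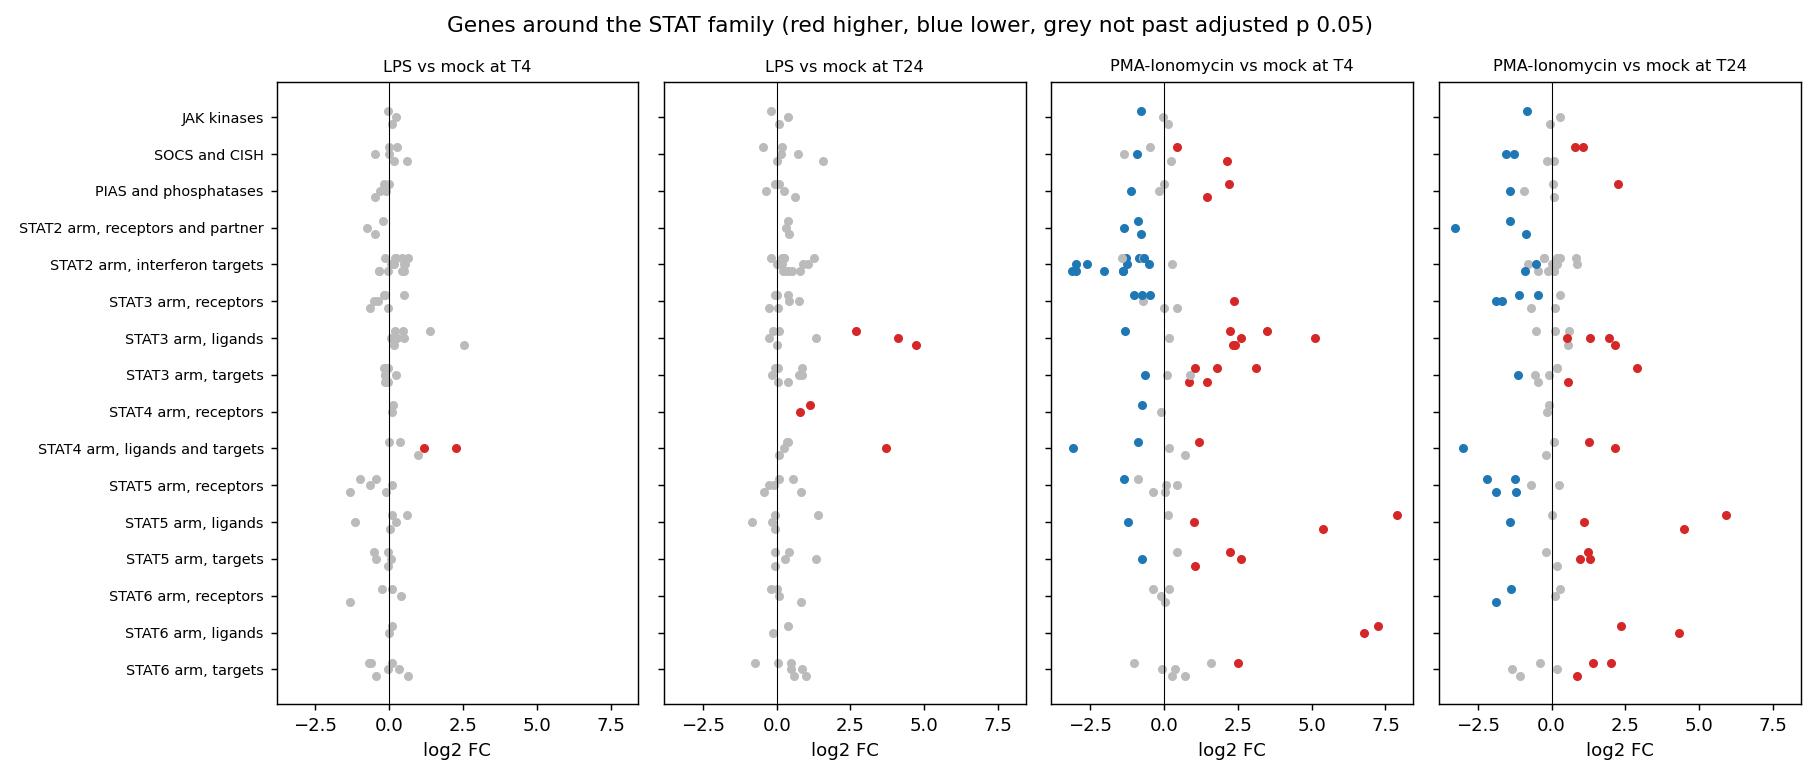
Log2 FC (horizontal axis) of the genes of each list (rows) in the 4 comparisons against mock at the matching time. Red points were higher, blue points lower and grey points not past an adjusted p of 0.05 by limma, and a gene in 2 lists is drawn in both. At T4 of PMA-Ionomycin 12 of the 15 interferon targets are blue.

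In whole PBMCs, fewer cells of a type and less RNA per cell cannot be told apart, so the levels of cell type markers are given beside these results. Over all genes, 9.33% were lower and 13.4% higher at T4 of PMA-Ionomycin, and 11.5% lower and 22.1% higher at T24, and the counts of markers are to be read against these shares. Of 13 monocyte markers found, 11 were lower at T24 of PMA-Ionomycin and 5 at T4, and the mean level of the list was 2.7 to 3.53 over the arrays of mock T24 and 0.89 to 1.42 over those of PMA-Ionomycin T24. Of 7 B cell markers, 4 were lower and 1 higher at each time. Of 10 T cell markers, 1 was higher at T4, and 1 was higher and 1 lower at T24, with a mean level of 0.33 to 0.81 in mock T24 and 0.58 to 0.65 in PMA-Ionomycin T24. The CD3 genes were not among the T cell markers found. Of 5 neutrophil markers 2 were lower at T4 of PMA-Ionomycin and 4 at T24, and of 5 platelet markers 4 were lower at T4 and 2 higher at T24. Of 5 erythrocyte markers 1 was lower at T24, and the only NK cell marker found, PRF1, was lower at T4 and higher at T24. After LPS, 2 monocyte markers were lower at T4 and 3 at T24, and 2 neutrophil markers at T24.

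Markers also shifted with time in the cultures in which STAT4 declined. The mean level of the monocyte list was 1.3 to 2.28 in mock T4 and 2.7 to 3.53 in mock T24, and 0.9 to 1.44 in LPS T4 and 2.03 to 3.13 in LPS T24. That of the platelet list was 1.74 to 2.62 in mock T4 and -0.1 to 0.22 in mock T24, and 1.33 to 2.27 in LPS T4 and -0.27 to -0.02 in LPS T24.

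Markers of dividing cells were high where STAT4 was high, at T24 of PMA-Ionomycin, but not at T4. All 7 found were higher at T24 of PMA-Ionomycin (median log2 FC 3.66), with a mean level of 4.89 to 5.45 there, against 1.16 to 1.79 in mock T24, 2.94 to 3.6 in mock T4 and 1.9 to 2.88 in PMA-Ionomycin T4, where 4 of them were lower than in mock T4 (median log2 FC -0.95) and STAT4 was not called. After LPS their mean level was 2.81 to 3.33 at T4 and 1.52 to 2.62 at T24. The part of cell composition and of cell division in the STAT4, STAT5A, STAT5B and STAT6 values was not tested.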

How the data were processed

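PBMCs of 4 rabbits were measured on 24 one-colour Agilent arrays, 1 per culture. The authors deposited the scanner output of Agilent Feature Extraction 10.7.3.1, whose median signal, mean signal and local background are spot intensities without scaling between arrays. A second deposited file holds log2 values. Each was found to be the log2 of the median signal less the array's mean over its spots, to within 5e-09.

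Control spots and spots marked as outliers were left out. The log2 median signal was centred on the array median, spots were averaged per probe and probes per gene. Genes were named through the accession or gene number and the RefSeq gene names of a newer rabbit assembly, from which no position was used, through the study's list of added immune genes, or through the gene name or description of the files. These steps gave 42089 probes and 28893 genes, 9513 with a symbol. limma 3.58.1 in R 4.3.3 (tables read with version 1.17.8 of data.table) fitted a mean for each of the 6 groups, following the study's methods, with Benjamini-Hochberg adjustment across the 28893 genes. Where a gene was not well above background on any of the 4 arrays of a group, its fold was given as a bound. The number of arrays limits the precision. Python 3.11.15, pandas 2.3.3 and matplotlib 3.10.9 were used for names and figures. The steps were tested on simulated data.

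The family members, gene lists and tests were chosen with earlier results of these data known. Named genes are the STAT genes, the JAK kinases, up to 3 called genes with the largest log2 FC in each other list and comparison with mock, and the 3 genes most alike to each STAT gene. Cultures with one rabbit number come from one animal and are thus paired. After subtraction of the group means, arrays of one rabbit correlated with a median r of 0.228 (60 pairs, from -0.414 to 0.629) and arrays of different rabbits with one of -0.0753 (180 pairs). Results were recomputed with quantile normalization, with the processed signal (scaled at percentile 75), with normexp (offset 50) and quantile normalization, from the deposited log2 file, with dim probes dropped, with outlier spots retained, from the compared arrays alone, with a block for rabbit or for slide, probe by probe, with FC of 2 or more demanded, and without each rabbit in turn. Leaving out the single arrays of rabbit 2 in PMA-Ionomycin T4 and of rabbit 4 in LPS T4, and each rabbit in turn for the listed genes, was chosen after the data were seen.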

Additional observations from a re-analysis of the deposited data

Results flagged for a closer look

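In 5 of 30 sets of 4 arrays, 1 value stood apart from the others by the Dixon test, which by chance does so in about 1 of 20 sets. STAT5A and STAT6 were low in rabbit 4 of LPS T4, at 0.72 and 0.37, on the array with the fewest spots above background. STAT5A was high in rabbit 5 of mock T4, at 2.23, and of mock T24, at 1.8. STAT4 was low in rabbit 5 of LPS T4, at 2.14, where the others lay between 3.27 and 3.43.

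The change of STAT4 with PMA-Ionomycin differed between T24 and T4 by 3.03 on the log2 scale in the limma test of that difference, and in 4 of 4 rabbits it was larger at T24, by 2.66 to 4.03.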

How the results depend on the processing

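Of 865 recomputed values for the 55 differences of STAT genes under 17 settings, 795 kept their direction and side of the threshold, 22 lost a call, 24 gained one and 24 changed sign, none of them a called difference. Of the 6 calls of PMA-Ionomycin against mock at T4 and T24, 5 held without each rabbit in turn, and that of STAT5A at T24 was lost without rabbit 1.

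The number of STAT genes called in the PMA-Ionomycin by time test went from 1 to 2 under quantile normalization, the processed signal, normexp, dropped dim probes, the slide as a block, single probes and without the PMA-Ionomycin T4 array of rabbit 2. Over single probes the gene added was STAT3, whose probe e went against probes a to d. It was STAT6 with dropped dim probes and the slide block, and STAT5A in the others. With the rabbit as a replicate block the number was 3 (STAT5A and STAT6 were added). For LPS T24 against T4 the block gave 3 in place of 2 (STAT5A was added). The block changed no other count of STAT genes called. For LPS T24 against T4 the number was 1 under quantile normalization, the processed signal, normexp, a required FC of 2 and without the LPS T4 array of rabbit 4 (STAT6 was lost), and 3 with dropped dim probes (STAT5A was added) and over single probes (STAT3 was added). For PMA-Ionomycin T24 against T4 it was 4, but 5 under quantile normalization, the processed signal and over single probes (STAT3 was added), and 3 under a required FC of 2, without rabbit 1, without rabbit 2 and without the PMA-Ionomycin T4 array of rabbit 2 (STAT6 was lost). Under normexp STAT3 took the place of STAT6. For PMA-Ionomycin against LPS at T24 it was 1 under a required FC of 2. There STAT3 was added under quantile normalization and normexp. STAT6 took the place of STAT5B with the processed signal and the deposited table. At T4 of that comparison STAT6 was added under quantile normalization and the processed signal, and STAT3 over single probes. For PMA-Ionomycin against mock, a required FC of 2 removed STAT6 at T4 and STAT5A at T24, and single probes added STAT3 at T24. Without each rabbit in turn the number was 0 to 1 for mock T24 against T4, 1 to 2 for LPS T24 against T4, 1 to 2 for the PMA-Ionomycin by time test and 1 to 2 for PMA-Ionomycin against LPS at T24.

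The sign changes concerned small differences. STAT3 in LPS against mock at T4 was 0.07 with the processed signal, 0.2 without the LPS T4 array of rabbit 4 and -0.36 to 0.16 without each rabbit. In PMA-Ionomycin against mock at T24 it was -0.18 under quantile normalization, -0.02 with the processed signal and -0.18 under normexp. In LPS T24 against T4 it was -0.15 with the processed signal, -0.15 without the LPS T4 array of rabbit 4 and -0.14 to 0.33 without each rabbit. In the PMA-Ionomycin by time test STAT3 was 0.26 over single probes and -0.39 to 0.29 without each rabbit. In PMA-Ionomycin against LPS it was -0.02 to 0.61 at T4 and -0.29 to 0.1 at T24 without each rabbit, and 0.18 at T24 over single probes. The 0.26 and 0.18 are the middle values of the STAT3 probes, and probe e went the other way in both. Against mock, probe e changed by 0.59 at T4 and -0.7 at T24 of PMA-Ionomycin, and by 0.68 at T24 of LPS. STAT4 in PMA-Ionomycin against LPS at T4 was -0.28 under quantile normalization, -0.29 with the processed signal, -0.27 under normexp, -0.07 in the deposited table and -0.19 to 0.2 without each rabbit. STAT4 in the LPS by time test was -0.34 to 0.09, and STAT6 in PMA-Ionomycin against mock at T24 -0.22 to 0.02, without each rabbit. The cause was not tested.

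Over all genes, LPS against mock at T4 called 296, but 0 from the arrays of the comparison alone and without rabbit 2 or rabbit 4, 3 without the LPS T4 array of rabbit 4, 12 with the processed signal, 71 in the deposited table, 96 without rabbit 5, 105 under normexp, 110 with a required FC of 2, 114 under quantile normalization, 119 without rabbit 1, 533 without the PMA-Ionomycin T4 array of rabbit 2 and 1229 with the rabbit block. At T24 it called 354, but 47 from the arrays of the comparison alone, 86 without rabbit 4, 110 without rabbit 2, 228 with a required FC of 2, 614 without rabbit 5 and 752 with the rabbit block. For PMA-Ionomycin a required FC of 2 left 2671 of 6580 at T4 and 4712 of 9713 at T24. The processed signal gave a median of all genes of 0.22 for LPS at T4, -0.16 for PMA-Ionomycin at T4 and -0.26 at T24. Of the limits, 3 of the 5 genes rest on 1 probe, and all spots of the family were well above background.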
